A study of Mus musculus with 18 samples.

Results

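The region described here is the stretch of mouse chromosome 4 between 145 and 148 Mb in genome build NCBIM37, 3 Mb in all. Its members are all peaks of 8 deposited histone peak lists that overlap it, 1123 of 225177 peaks. The stretch was chosen from these lists for its many peaks of H3K9me3 (histone H3 trimethylated at lysine 9), so that the number, the density and the match of H3K9me3 peaks are given as a description, with no test. It is labelled as a zinc finger gene cluster. RefSeq's table of assembly GRCm38.p6 lists 82 genes on chromosome 4 between Tnfrsf8 and Miip, of which 16 carry Zfp names, 19 are protein coding and 56 are pseudogenes. Those genes were not placed on NCBIM37, so the label could not be checked against the positions of the peaks, and no gene is attached to a peak.

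The lists come from chromatin immunoprecipitation and sequencing of mouse embryonic fibroblasts of a mixed B6;129 background that carry a conditional allele of Rb, the retinoblastoma tumour suppressor. GFP cells were infected with an adenovirus for green fluorescent protein and keep Rb, and Cre cells with an adenovirus for the Cre recombinase, which deletes it. Both were expanded for at most 3 passages and neither received the 4F construct used elsewhere in the study. Each condition has 1 library for H3K9me3, H3K4me3, pan-acetylated histone H3 (H3Ac) and H3K27me3. With 1 library per mark and condition no difference has a replicate check and no p-value is given. The labels do not say whether both conditions shared embryos, and fibroblast identity could not be checked on marker genes without gene positions.

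H3K9me3 is a mark of silent heterochromatin. Krüppel-associated box (KRAB) zinc finger genes, which lie in tandem clusters of near copies, are known to carry it over their own bodies, where the corepressor TRIM28 (KAP1) recruits the methyltransferase SETDB1. H3K4me3 and H3 acetylation mark active promoters, and H3K27me3 is laid down by Polycomb at silent developmental genes. In a population of cells, a mark on fewer cells and less of the mark per cell cannot be told apart, and peaks of 2 marks that overlap need not lie on the same molecules. Tandem copies also share sequence, so that reads may be hard to assign to 1 copy, and the handling of such reads is not given in the sources used.

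H3K9me3 peaks crowded the first part of the interval and were all but missing from the rest. The GFP list held 332 H3K9me3 peaks and the Cre list 364, which is 3.05% of all H3K9me3 peaks of the GFP list and 9.13% of those of the Cre list. With a minimum score of 100 the order turned, to 216 GFP and 183 Cre peaks. All 332 GFP peaks and 363 of the Cre peaks lay before position 147216701, and this part of 2217 kb is called the array below, with a bound set after the peaks were seen. Within it H3K9me3 peaks covered 1137 kb (51.3%) in GFP cells and 827 kb (37.3%) in Cre cells. The remaining 783 kb, the flank, held a single H3K9me3 peak, chr4:147972852-147973906 in the Cre list, with a score of 105. At the other bound, the first 100 kb inside held 24 GFP and 13 Cre peaks, which covered 51.9 and 18.1 kb. The 100 kb before the interval held 4 peaks in each list, covering 5.81 kb in GFP cells and 3.93 kb in Cre cells, and the 400 kb before those held none in either.

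The other marks were laid out the opposite way, except H3K4me3, which occurred on both sides. H3Ac peaks covered 1.12% of the array in each condition, against 9.34% (GFP) and 9.07% (Cre) of the flank. H3K27me3 covered 0.149% (GFP) and 0.367% (Cre) of the array, against 11.3% and 10.4% of the flank. H3K4me3 covered 11.3% of the array in GFP cells and 7.03% in Cre cells, and 5.29% and 5.39% of the flank. In numbers, 98 of 123 GFP H3K4me3 peaks and 74 of 95 Cre H3K4me3 peaks lay in the array, but only 15 of 58 and 15 of 59 H3Ac peaks and 4 of 50 and 4 of 42 H3K27me3 peaks. With a minimum score of 100 the interval held 60 GFP and 62 Cre H3K4me3 peaks.

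**Figure D1:**
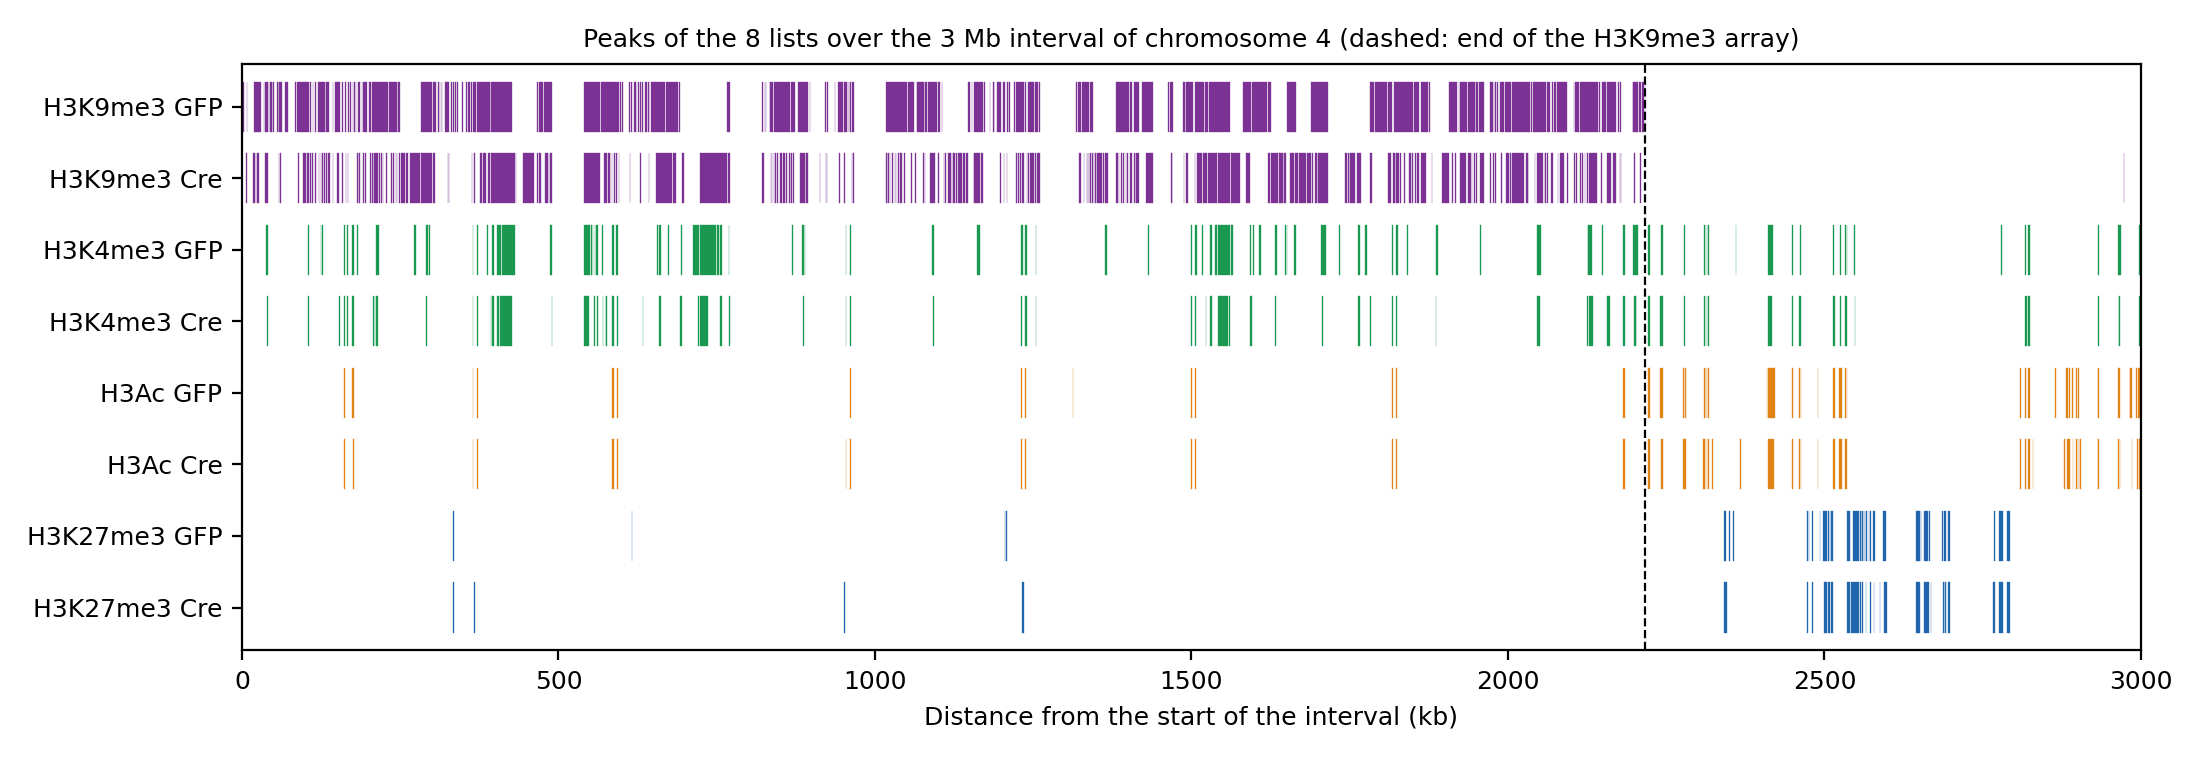
Peaks of the 8 lists (rows, by mark and condition) along the 3 Mb interval, with distance from its start in kb on the horizontal axis; each bar is 1 peak drawn to scale, so that peaks narrower than a pixel appear faint. H3K9me3 peaks crowd the array to the left of the dashed line and are all but missing in the 783 kb to its right, where most H3Ac and H3K27me3 peaks lie.

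Coverage varied along the array. Over its 22 windows of 100 kb, H3K9me3 peaks covered 5.05 to 79.2 kb in GFP cells (median 54.0 kb) and 8.73 to 70.3 kb in Cre cells (median 36.6 kb). GFP peaks covered more than Cre peaks in 16 of the 22 windows and less in 6. The largest excess of Cre lay in chr4:145700001-145800000, where Cre peaks covered 47.8 kb and GFP peaks 5.05 kb.

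GFP peaks of H3K9me3 were wider and closer together than Cre peaks. The median width was 1911 bases in GFP cells (95% interval 1771 to 2111, n = 332 peaks) and 1441.5 bases in Cre cells (1339 to 1560, n = 364 peaks). Both exceeded the medians over the rest of each list, 1056 bases in GFP cells and 873 in Cre cells. Peaks of at least 5000 bases made up 16.9% of the GFP peaks and 9.62% of the Cre peaks of the interval, against 2.09% and 2.38% elsewhere. The median gap between neighbours was 673 bases in GFP cells and 1261 in Cre cells, and 195 of 331 GFP gaps (58.9%) but 165 of 363 Cre gaps (45.5%) were shorter than 1 kb. Among peaks with a score of at least 100 the median widths were 3095.5 and 2278 bases and the median gaps 1469 and 2487 bases, and among peaks merged within 1000 bases 4530 and 2016 bases and 2407.5 and 3305.5 bases. GFP peaks were wider and closer together in each of these settings. Intervals cover counting error only and treat neighbouring peaks as independent, which they are not.

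**Figure D2:**
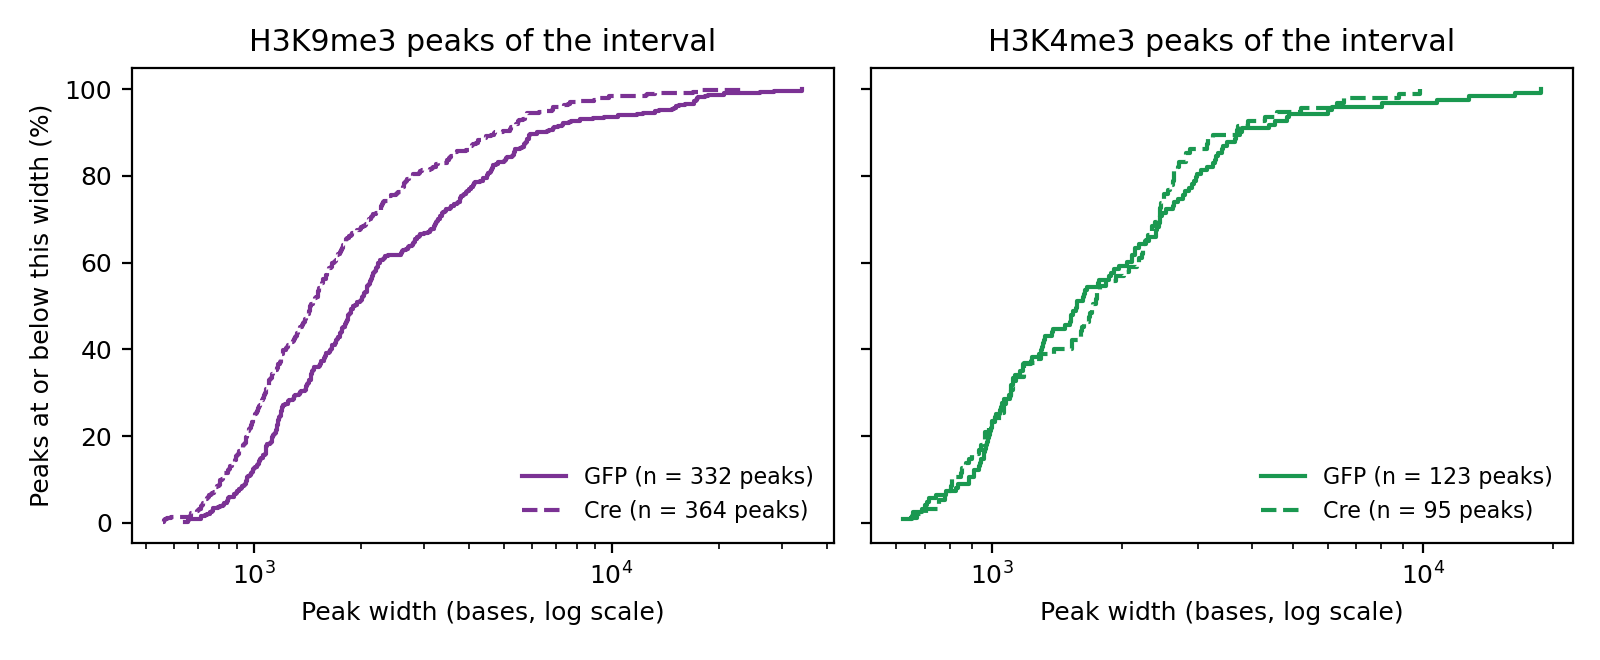
Cumulative share of peaks (vertical axis, %) by width (horizontal axis, bases, log scale) for H3K9me3 (left) and H3K4me3 (right), GFP as solid and Cre as dashed lines. The H3K9me3 curve of GFP cells lies to the right of that of Cre cells, with medians of 1911 and 1441.5 bases, while the H3K4me3 curves cross.

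The widest GFP peak, chr4:146527414-146561464, spanned 34051 bases at a score of only 151, a deposited value with a minimum near 50 that has no stated unit and is used here only to rank peaks within a list. Cre cells had 3 peaks in its place, which together covered 97.8% of it, 1 of them chr4:146548811-146561356 with a score of 1486. The second widest GFP peak, chr4:145398489-145426837, measured 28349 bases with a score of 1230, and 4 Cre peaks covered 98.7% of it, among them the highest-scoring Cre peak, chr4:145408857-145426595 (17739 bases, score 1823). The third, chr4:145539750-145565753, measured 26004 bases, and 5 Cre peaks covered 98.1% of it. So these 3 GFP peaks lay over marked Cre sequence that the Cre list had in pieces. The fifth, chr4:146600840-146619408, was an exception: over its 18569 bases, at a score of 295, the Cre list had no peak.

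The highest-scoring GFP peak was chr4:145207377-145222522, 15146 bases wide with a score of 1624, and 5 Cre peaks covered 68.9% of it. It was followed by chr4:146426885-146435768 (score 1612), chr4:146954301-146962016 (1373), chr4:146084467-146098020 (1234) and chr4:147125740-147141820 (1234), each of which overlapped at least 1 Cre peak. Each of the 5 highest-scoring Cre peaks overlapped a single GFP peak, which covered the peak whole or, for chr4:145539748-145544447, 99.96% of it. All of these 10 peaks overlapped an H3K4me3 peak of their own condition, and none an H3Ac peak. Over the whole H3K9me3 lists 9.64% (GFP) and 13.8% (Cre) of the peaks overlapped H3K4me3. Only 0.395% and 0.552% overlapped H3Ac, so that none of 10 is near the share of the lists. A wide peak meets an overlap of 1 base more easily, and the part of width was not tested.

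Joining peaks shows the same difference at a larger scale. Peaks no more than 1000 bases apart joined into 137 domains in GFP cells and 198 in Cre cells within the array. The longest were chr4:145362111-145426837 (64.7 kb) in GFP cells and chr4:146525928-146577092 (51.2 kb) in Cre cells. When gaps of up to 10000 bases were bridged, the conditions came closer: 24 GFP domains spanned 66.9% of the array and 37 Cre domains 64.8%. The longest of these was in Cre cells, chr4:146895421-147179253 (283.8 kb).

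Of the 332 GFP peaks of H3K9me3, 194 overlapped a Cre peak by at least 1 base (58.4%, exact 95% interval 52.9 to 63.8) and 138 did not. Of the 364 Cre peaks, 286 overlapped a GFP peak (78.6%, 74.0 to 82.7) and 78 did not. When at least 50% of the peak had to be covered, the share fell to 37.3% of the GFP peaks (124 of 332) and was 75% of the Cre peaks (273 of 364). Over all chromosomes, 81.0% of the GFP peaks and 39.9% of the Cre peaks had no counterpart. Because the interval was chosen for its H3K9me3, nothing is read from that difference. Counted in bases, 569 kb carried H3K9me3 peaks in both conditions, 567 kb in GFP cells only and 258 kb in Cre cells only. The shared bases were 50.1% of the GFP bases and 68.8% of the Cre bases.

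Few peaks agreed in their edges. Only 98 peaks of each list matched 1 to 1, starts lay within 100 bases of each other in 29 cases and ends in 30. There were 66 GFP peaks that each overlapped at least 2 Cre peaks, together 183 of them, with up to 8 Cre peaks inside chr4:145282716-145300969. The reverse held for 24 Cre peaks.

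The match rose with the score in GFP cells but not in Cre cells. With the peaks in 4 equal groups by score, 33.7% of the lowest and 91.6% of the highest group were matched in GFP cells (28 of 83 and 76 of 83). In Cre cells 84.6% of the lowest group (77 of 91) and 73.6% of the highest (67 of 91) were matched, and the intervals of these shares, 75.5 to 91.3% and 63.3 to 82.3%, overlap. In the rest of the Cre list the match rose from 40.6% to 82.4%. In 4 equal groups by width instead, the interval's share rose from 24.1% to 89.2% in GFP cells. In Cre cells it ran from 84.6% to 70.3%. Score and width were not separated. The unmatched Cre peaks of the interval had a median width of 1868 bases and a median score of 113, against 1403 bases and 97.0 for the matched ones. The unmatched GFP peaks were narrow and low instead, with medians of 1206.5 bases and 92.1 against 3119 bases and 205.

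**Figure D3:**
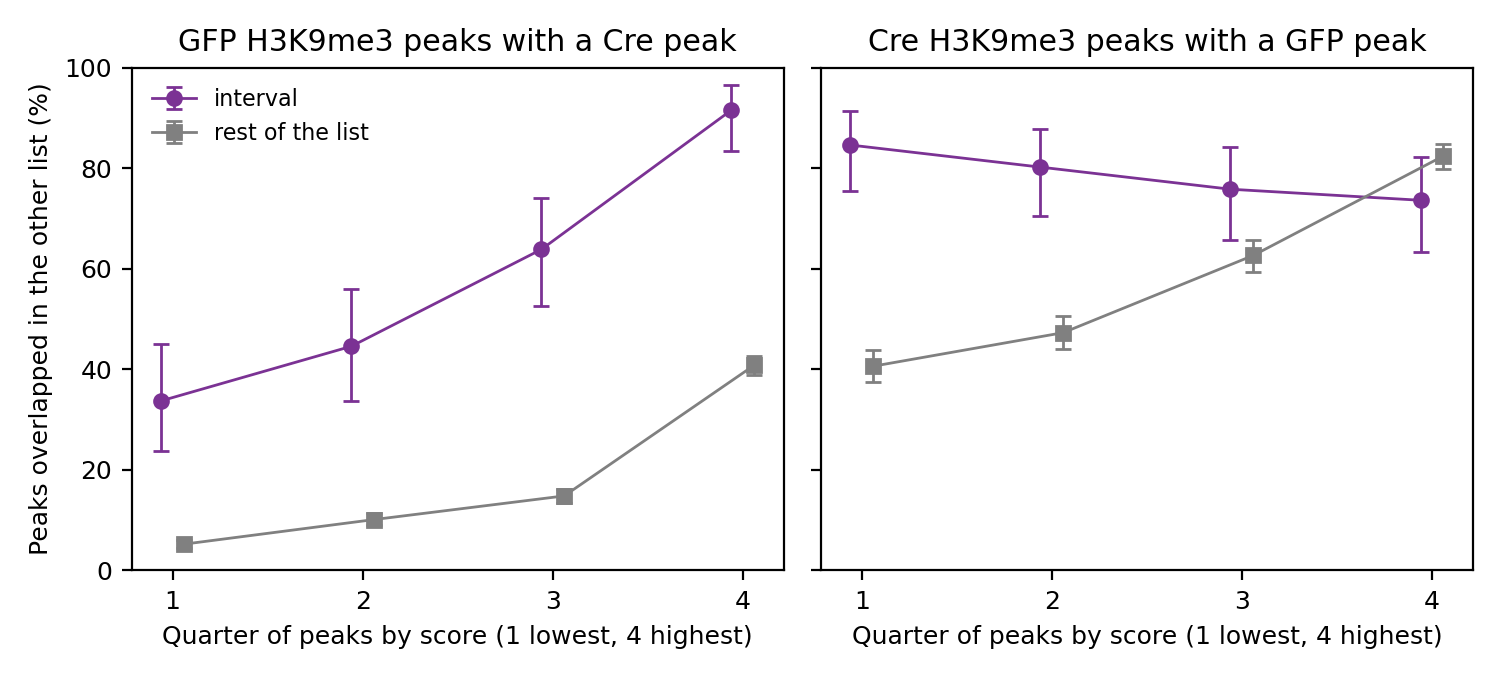
Share of H3K9me3 peaks overlapped by a peak of the other condition (vertical axis, %) in 4 equal groups by score (horizontal axis), for GFP peaks (left) and Cre peaks (right), in the interval (circles) and the rest of the list (squares), with exact 95% intervals. In the interval the share rises from 33.7% to 91.6% for GFP peaks but runs from 84.6% to 73.6% for Cre peaks, while outside it rises in both.

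The highest-scoring GFP peaks without a Cre counterpart were chr4:145645931-145649881 (score 519), chr4:146067086-146072099 (381), chr4:146051588-146056340 (335), chr4:146650583-146655087 (311) and chr4:145356546-145360550 (302). They were 3951 to 5014 bases wide. The highest-scoring Cre peaks without a GFP counterpart were chr4:145723235-145746167 (914), chr4:146763159-146768359 (571), chr4:145449343-145454998 (553), chr4:146567114-146574481 (545) and chr4:146669106-146675968 (541). The first of them was also the widest Cre peak of the interval, at 22933 bases.

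That peak lay in the longest stretch of the array without GFP H3K9me3, chr4:145691292-145766568, 75.3 kb. GFP cells had 8 H3K4me3 peaks there, which covered 44.5 kb, and no other mark. The widest was chr4:145723031-145735800, 12770 bases with a score of 1532, the highest among the GFP H3K4me3 peaks of the array without H3Ac. It was flanked by chr4:145711805-145722557 (10753 bases, score 233) and chr4:145735998-145742141 (6144 bases, score 232). Cre cells had 6 H3K4me3 peaks covering 19.1 kb, led by chr4:145726702-145733008 (6307 bases, score 1161), and in addition 6 H3K9me3 peaks covering 46.8 kb. The H3K9me3 peaks chr4:145723235-145746167 and chr4:145746430-145763367 (16938 bases, score 350) nearly adjoined. Part of the stretch was thus listed for H3K4me3 in both conditions and for H3K9me3 in Cre cells only.

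**Figure D4:**
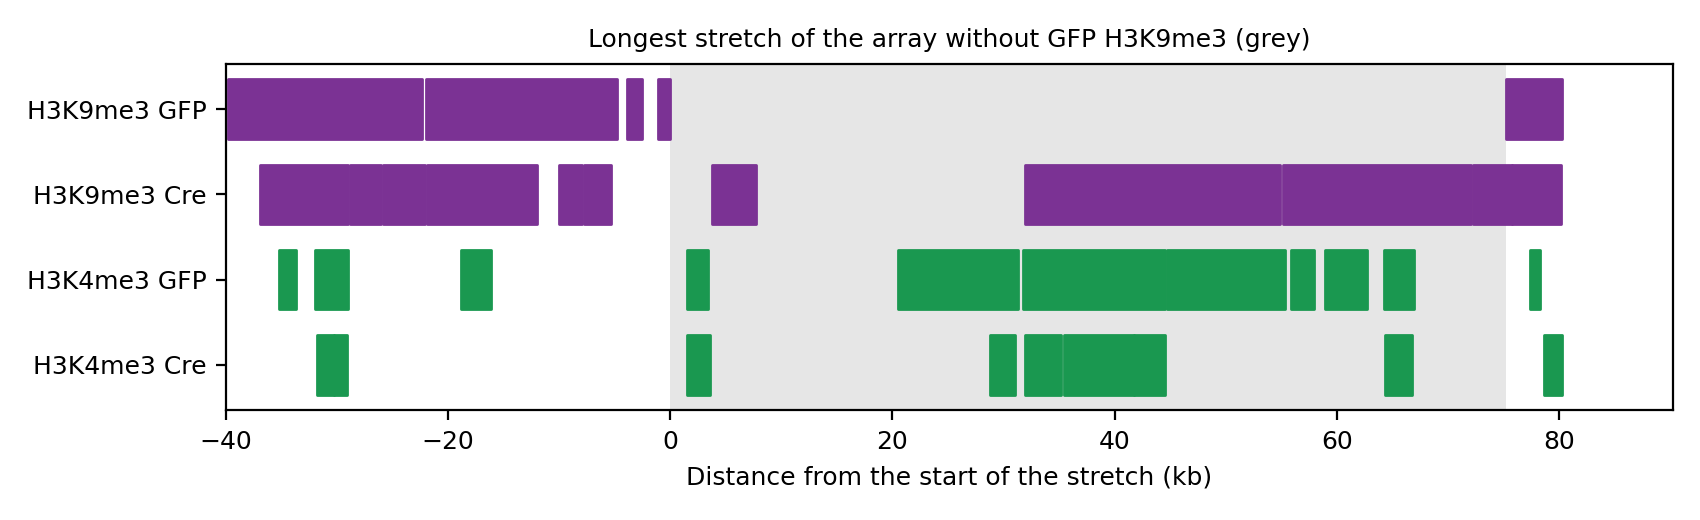
H3K9me3 and H3K4me3 peaks of GFP and Cre cells (rows) around the longest stretch of the array without GFP H3K9me3 (grey, 75.3 kb), with distance from its start in kb on the horizontal axis; each bar is 1 peak, and peaks that nearly adjoin run together. The 2 widest Cre H3K9me3 peaks of the stretch lie over GFP H3K4me3 peaks.

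A second stretch without GFP H3K9me3, chr4:146715776-146781905 (66.1 kb), held 8 Cre H3K9me3 peaks covering 19.9 kb. The strongest, chr4:146763159-146768359, lay over an H3K4me3 peak in both conditions, chr4:146763449-146766083 in GFP cells (score 225) and chr4:146763549-146766423 in Cre cells (score 174).

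The longest stretches of the array with no H3K9me3 peak in either list measured 56.5 kb (chr4:146261023-146317548), 50.5 kb (chr4:145966848-146017380) and 49.9 kb (chr4:145771614-145821481). Those of 50.5 and 49.9 kb held no peak of any of the 8 lists, and that of 56.5 kb a single GFP H3Ac peak of 777 bases with a score of 75.1. Assembly gaps of NCBIM37 were not located here, and whether these stretches hold assembled or uniquely mappable sequence was not tested.

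H3K4me3 peaks of the interval were many in the array but mostly weak. Their median score was 92.5 in GFP cells and 121 in Cre cells in the array, against 961 and 1571 in the flank, and 569 and 895 over the rest of the lists. The intervals of the median widths overlapped, at 1571 bases in GFP cells (95% interval 1314 to 1969) and 1712 in Cre cells (1393 to 2191). Among peaks with a score of at least 100 they were 2442 and 2266 bases. The tail differed: 4 GFP peaks and 0 of 95 Cre peaks reached 10 kb. These were chr4:146542587-146561359 (18773 bases, score 93.1), chr4:145410329-145426626 (16298 bases, score 1475) and the pair of the 75.3 kb stretch described above. The first overlapped 4 Cre H3K4me3 peaks and the second 3. The widest Cre peaks, chr4:145416779-145426590 (9812 bases, score 579) and chr4:146548791-146557569 (8779 bases, score 1247), lay within them, and both places carried H3K9me3 in both conditions.

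In the interval 45 of 123 GFP peaks and 13 of 95 Cre peaks had no counterpart, where 10.7% of the GFP list and 12.6% of the Cre list had none. The matched share of GFP peaks was 63.4% (54.3 to 71.9), against 89.4% (89.0 to 89.8) over the rest of the list. The interval's peaks scored lower, with a median of 96.5 against 569. In the lowest-scoring of 4 equal groups of the rest, with scores of 50 to 135, 63.3% were matched. In the interval's own 4 groups by score it was 10 of 31 (scores 50.4 to 63.7), 15 of 31 (66.7 to 96.5), 22 of 30 and 31 of 31. The part of score in the difference was not tested. For Cre peaks the matched share was 86.3% (77.7 to 92.5), and 87.4% over the rest. All but 2 of the unmatched GFP peaks and all unmatched Cre peaks lay in the array. The highest-scoring unmatched GFP peaks were chr4:146161523-146165184 (score 293), chr4:146562007-146565513 (282), chr4:145735998-145742141 (232), chr4:145126195-145128108 (152) and chr4:146430765-146433534 (138). Each of these 5 lay over an H3K9me3 peak in Cre cells, and 3 of them also in GFP cells. The highest-scoring unmatched Cre peaks, chr4:145769915-145771549 (176), chr4:147159286-147160897 (124), chr4:146781547-146783385 (118), chr4:145575876-145576941 (107) and chr4:146522470-146523486 (101), lay over H3K9me3 in both conditions.

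Most H3K4me3 peaks of the array overlapped H3K9me3. In the interval 74 of 123 GFP H3K4me3 peaks overlapped a GFP H3K9me3 peak (60.2%, 50.9 to 68.9) and 56 of 95 Cre peaks a Cre H3K9me3 peak (58.9%, 48.4 to 68.9), against 4.65% of the GFP list and 2.45% of the Cre list. All of these lay in the array, where the shares were 75.5% and 75.7%. The interval was chosen for its H3K9me3, so that an excess over the whole list is part of the choice. Acetylation was the exception in the other direction: 36 of 123 GFP H3K4me3 peaks and 35 of 95 Cre peaks overlapped H3Ac, where 80.1% and 85.0% of the lists did.

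The H3K4me3 peaks of the array are described below in 2 classes, those without H3Ac and those with it. In the array 84 GFP H3K4me3 peaks had no H3Ac, and 63 of them (75%) overlapped GFP H3K9me3, where 22.8% of such peaks did over the whole list. In Cre cells it was 52 of 59 (88.1%), where 15.8% did over the list. Of the 21 GFP peaks of this kind outside GFP H3K9me3, 15 overlapped Cre H3K9me3, so that 78 of the 84 overlapped it in at least 1 condition. These peaks were weak, with median scores of 77.3 in GFP cells and 94.7 in Cre cells. Of the 84 GFP peaks 41 (48.8%) were matched in Cre cells, and of the 59 Cre peaks 46 (78.0%) were matched in GFP cells. The matched share of unacetylated H3K4me3 peaks over the whole lists was not counted.

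Acetylated H3K4me3 peaks of the array numbered 14 in GFP cells and 15 in Cre cells, with higher median scores of 1444 and 765, and all were matched. In GFP cells 11 of the 14 overlapped H3K9me3, which lay over 73.5% of their bases. In Cre cells 4 of the 15 did, with 9.85% of their bases. Over all chromosomes, the array included, such overlap was seen for 0.152% of the acetylated H3K4me3 peaks of the GFP list (29 of 19080) and 0.0988% of the Cre list (19 of 19237). Outside the array it was 18 of 19066 peaks (0.0944%) in the GFP list and 15 of 19222 (0.0780%) in the Cre list. Of the unacetylated H3K4me3 peaks outside the array, 21.9% (GFP) and 14.5% (Cre) overlapped H3K9me3. In the Cre lists H3K9me3 thus lay over 88.6% of the bases of the array's unacetylated H3K4me3 peaks and 9.85% of those of acetylated ones. In the GFP lists it lay over 65.8% and 73.5%. H3K9me3 as a whole covered more of the array in the GFP list (51.3% against 37.3%), and the part of that difference in this result was not tested. When at least 50% of the H3K4me3 peak had to be covered, 11 of the 36 acetylated GFP peaks of the interval and 0 of the 35 Cre peaks counted. Of these, 22 GFP and 20 Cre peaks lay in the flank, where none overlapped H3K9me3. For the array's Cre peaks, 0 of 15 allows a share of up to 21.8%, the upper bound of its exact 95% interval.

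The acetylated places of the array formed a repeated pattern. H3Ac peaks of both lists merged into 16 sites, and 14 of these lay in 7 pairs. Each pair had a stronger and a weaker site, called strong and weak below. The pattern was seen in the data and not looked for beforehand. Within a pair the centres lay 6.918, 6.874, 6.877, 6.808 and 6.829 kb apart in the second to sixth pair, 13.818 kb apart in the first and 5.752 kb in the seventh. The weak site lay on the side of lower coordinates in 6 pairs and on the other side in the third. From one strong site to the next the distance was far larger and varied, 196.5 to 374.8 kb. In between, the array held no acetylated site in either list apart from the weak single one of 777 bases.

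The strong sites were chr4:145174311-145176573, chr4:145370699-145373145, chr4:145585303-145587716, chr4:145960180-145962386, chr4:146237069-146239354, chr4:146505424-146507747 and chr4:146822811-146824800. H3K4me3 reached a score of 3100 at the second to sixth of them in both conditions, a value that many peaks of the lists share. At the first site the H3K4me3 score was 2415 in GFP cells and 2665 in Cre cells, and at the seventh 474 and 765. H3Ac scores in GFP cells were 817, 2128, 2313, 1969, 2002, 1821 and 177, from the first site to the seventh, and in Cre cells 784, 1696, 1390, 1389, 1941, 2020 and 147. The seventh site was thus the weakest by both marks in both conditions. H3K4me3 peaks of the strong sites were 2108 to 2915 bases wide in GFP cells and 2346 to 2815 in Cre cells.

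Weak sites were present in both conditions. Their H3K4me3 peaks scored 69.6 to 157 in GFP cells and 87.2 to 288 in Cre cells, with widths of 713 to 3051 and 982 to 1299 bases. H3Ac was called at 6 of the 7 in GFP cells, with scores of 66.6 to 131, and at all 7 in Cre cells, with scores of 96.4 to 214. The missing call was at the fourth pair, where the Cre peak chr4:145953915-145954896 scored 116.

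H3K9me3 differed between the conditions at these sites. In GFP cells it lay over all 7 strong H3K4me3 peaks, over 1190 bases of the first (2108 bases wide), 2002 of the second (2446), 2431 of the third (2438), 2194 of the fourth (2194), 1896 of the fifth (2396), 2355 of the sixth (2537) and 2826 of the seventh (2915). In Cre cells it lay over 800 bases of the sixth (2346) and 1197 of the seventh (2479), and over none of the other 5. Each of the 7 paired strong sites thus had less H3K9me3 in the Cre list than in the GFP list. The single strong site described below had none in either. GFP H3K9me3 peaks also covered more in 16 of the array's 22 windows of 100 kb, and the sites are not replicates of a condition. Over all chromosomes the GFP list held 10885 H3K9me3 peaks covering 15.8 Mb, and the Cre list 3985 covering 5.46 Mb. The part of list size in the difference at these sites was not tested. The 10 GFP H3K9me3 peaks that overlapped strong H3K4me3 peaks had scores of 59.4 to 405, the lowest at the sixth site and the highest at the seventh. Weak sites overlapped H3K9me3 in 5 of 7 pairs in GFP cells and in 2 of 7 in Cre cells. The weak site of the seventh pair did so in Cre cells only, over 375 bases.

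**Figure D5:**
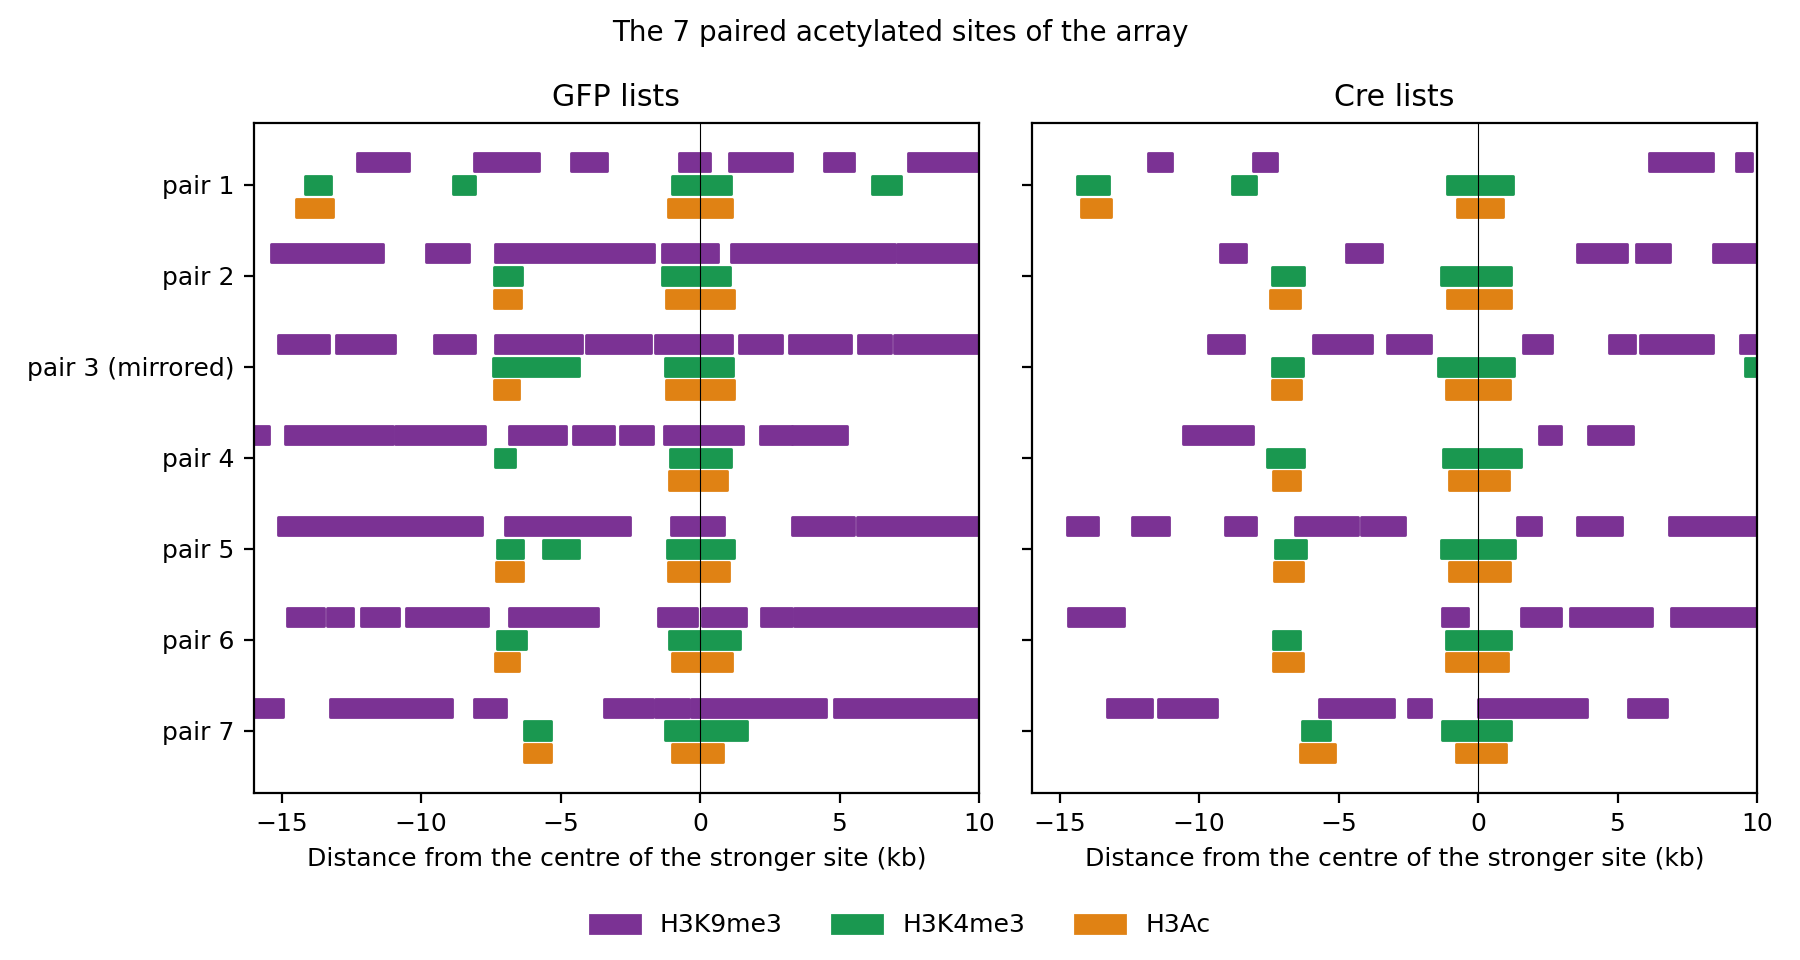
H3K9me3, H3K4me3 and H3Ac peaks around the 7 pairs of acetylated sites (rows), GFP lists on the left and Cre lists on the right, by distance in kb from the centre of the strong site; each bar is 1 peak, peaks that nearly adjoin run together, and the third pair is mirrored. H3K9me3 bars reach over the strong H3K4me3 peaks at 0 kb in all 7 rows on the left and in 2 on the right.

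Between the sites of a pair H3K9me3 peaks covered 45.4 to 94.6% in GFP cells and 0 to 70.9% in Cre cells, more in GFP cells for 6 of the 7 pairs. The seventh pair was the exception, with 57.0% in GFP cells and 70.7% in Cre cells. H3K27me3, chosen for mention after its values were seen, had only 4 peaks per list in the array. Of the Cre peaks, chr4:145366505-145368236 (score 63.7) lay between the sites of the second pair and chr4:146232454-146235812 (score 137) between those of the fifth, where GFP cells had none.

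The remaining strong acetylated site of the array, chr4:147182121-147184944, stood alone. H3Ac scored 2462 in GFP cells and 2553 in Cre cells and H3K4me3 3100 in both, and no H3K9me3 peak overlapped it in either list, the nearest GFP and Cre peaks lying 3052 and 2832 bases from its H3K4me3 peak. Beyond it came the end of the array and the first H3K4me3 peak of the flank, chr4:147221369-147223633 in GFP cells and chr4:147221345-147223625 in Cre cells.

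The flank carried H3K4me3 with H3Ac and, mostly apart from those, H3K27me3, and most of its peaks were matched. Of its H3K27me3 peaks 3 of 46 in GFP cells and 2 of 38 in Cre cells overlapped H3K4me3 of the same condition. Over the whole H3K27me3 lists 8.21% (GFP) and 8.61% (Cre) did. Overlap with H3Ac was seen for 1 of 46 and 2 of 38, where 3.27% and 5.19% of the lists had it. H3K27me3 thus lay mostly apart from both marks over the whole lists too, and this is not particular to the flank. H3K4me3 peaks at a score of 3100 included chr4:147241227-147244652, chr4:147413107-147417926, chr4:147965821-147967686 and chr4:147997116-148000789 in GFP cells, each with a Cre counterpart. Of the flank's H3K4me3 peaks 22 of 25 in GFP cells and 20 of 21 in Cre cells overlapped H3Ac, and 23 of 25 and 21 of 21 were matched. In the whole interval 7 of 58 GFP and 8 of 59 Cre H3Ac peaks had no counterpart, where 26.6% and 15.4% of the lists had none. For H3K27me3 it was 13 of 50 and 6 of 42, where 30.5% and 33.6% had none. The strongest H3K27me3 peak lay in the flank in both conditions, chr4:147544839-147552317 in GFP cells (7479 bases, score 2672) and chr4:147544975-147554169 in Cre cells (9195 bases, score 3196), and overlapped H3K4me3 in both. The next by score were chr4:147788185-147793029 in GFP cells (1272) and chr4:147788317-147793181 in Cre cells (1345).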

How the data were processed

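Each of the 8 lists belongs to 1 library. The deposited peak names begin with MACS, a peak caller. Per the submitters' processing notes, MACS 1.4.1, BWA, bedtools 2.16.2 and SAMtools 0.1.18 were among the tools, with build NCBIM37 and no role stated for each. The deposited lists give chromosome, start, end, name and the authors' score, which has no unit or header. The read depth, the control library of each list and the treatment of duplicate reads are not given in the sources used here, and the part of depth in the differences between conditions was not tested. The labels number the GFP histone input 1 and the Cre histone input 3. The other 10 samples of the series were not analysed here.

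Starts were converted to count from 1. Peaks were kept where they overlapped the interval. A match is an overlap of at least 1 base with the other condition's list. The array ends with the last H3K9me3 peak before the longest stretch free of H3K9me3 in both lists. H3Ac peaks of both conditions were merged into sites, paired when their centres lay within 20 kb. Intervals are exact (Clopper-Pearson) 95% intervals for shares and order-statistic intervals for medians. The code for overlaps was tested on simulated data. The regions named are, per H3K9me3 and H3K4me3 list, the 5 widest, the 5 highest-scoring and the 5 highest-scoring without a counterpart, the 3 longest stretches without H3K9me3 in either list, and the 5 highest-scoring H3Ac and H3K27me3 peaks, of which the text gives the leading ones. The pairs and the stretches free of GFP H3K9me3 were chosen after their values were seen. The members, the rules and the comparisons were all chosen with earlier results of these data known. Alternatives were peaks merged within 1000 bases, a minimum score of 100, equal numbers of top-scoring peaks, the first 2 Mb alone, and at least 50% of a peak covered, besides 2 added after the data were seen, the array alone and the lists without the longest stretch free of GFP H3K9me3. No sequence is printed, because no genome of NCBIM37 was used here. The scripts ran in Python 3.11.15 with SciPy 1.17.1, pandas 2.3.3, matplotlib 3.10.9 and NumPy 2.4.6.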

Additional observations from a re-analysis of the deposited data

How the results depend on the processing

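Of 116 alternative values of 18 counts, medians and shares, 79 stayed within their limits and 37 moved; without the longest stretch free of GFP H3K9me3 all 18 stayed. A minimum score of 100 turned the order of the peak numbers, to 216 GFP and 183 Cre peaks of H3K9me3 and 60 and 62 of H3K4me3. It lowered the matched share of H3K9me3 peaks to 43.1% (GFP) and 71.0% (Cre), that of Cre H3K4me3 peaks to 72.6%, the overlap of H3K4me3 with H3K9me3 to 50% and 45.2%, and that of acetylated Cre H3K4me3 peaks from 11.4% (4 of 35) to 3.13% (1 of 32). It raised the median width of H3K9me3 peaks from 1911 to 3095.5 bases (GFP) and from 1441.5 to 2278 bases (Cre), and merging within 1000 bases to 4530 and 2016 bases; the median gaps rose from 673 and 1261 bases to 1469 and 2487 and to 2407.5 and 3305.5. Merging within 1000 bases left 137 GFP and 199 Cre H3K9me3 peaks, 66.4% and 85.4% matched. With the lists cut to equal length by score, 74.7% of GFP H3K4me3 peaks were matched. In the first 2 Mb alone the Cre list held 63 H3K4me3 peaks, 73.9% (GFP) and 74.6% (Cre) of H3K4me3 peaks overlapped H3K9me3, and 84.6% and 28.6% of acetylated ones did. In the array alone the shares were 75.5%, 75.7% and, for acetylated GFP peaks, 78.6% (30.6% over the interval). With at least 50% of the peak covered, 37.3% of GFP H3K9me3 peaks were matched, and 0 of the acetylated Cre H3K4me3 peaks overlapped H3K9me3. Merging joins nearby peaks and the narrower bounds leave out the flank by construction; the cause of the other moves was not tested. No paired analysis was possible because the GFP and Cre lists share only 1 replicate number. The score threshold and the unknown depth limit all counts: an unlisted peak is one below the authors' threshold, not an absent mark.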

Other observations

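Besides the stretches described above, chr4:145490007-145539733 (49.7 kb) in the array held no peak in any of the 8 lists. Its right edge was abrupt in both conditions: the GFP H3K9me3 peak chr4:145539750-145565753 and the Cre peak chr4:145539748-145544447 began 2 bases apart. The 3 other stretches without any peak that exceeded 49 kb were chr4:146261023-146312204 (51.2 kb), chr4:145966848-146017380 (50.5 kb) and chr4:145771614-145821481 (49.9 kb). Why their lengths are close to each other was not tested.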
